A study of Mus musculus with 2 samples.

Results

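Mitochondrial fatty acid oxidation was followed in mouse liver through 32 genes, which were chosen by name: the carnitine shuttle, the acyl-CoA dehydrogenases, the later enzymes of the β-oxidation spiral, the enzymes for unsaturated chains, electron transfer, medium-chain acyl-CoA synthetases, malonyl-CoA decarboxylase, 2 uncoupling proteins and the propionyl-CoA branch. Their probes were found by matching the accession printed for each probe to a mouse gene table. The 32 genes were read by 39 of the 26762 probes that could be named, out of 20284 named genes, and 7 of the 32 had several probes.

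The study hybridised 4 pools of total liver RNA on 2 two-colour microarrays: livers of CREBH KO mice after 24 h of fasting, of WT mice after 24 h of fasting, of CREBH KO mice fed ad lib and of WT mice fed ad lib. All mice were of the C57B6J strain or on that background, and CREBH KO denotes a null genotype. On each array the KO pool carried Cy5 and the WT pool Cy3, with no dye swap, so a dye effect and a genotype effect on a single probe cannot be told apart. Age, sex, the number of mice in a pool and the way the null allele was made are not given in the sources used here. With 1 pool per group, measured once, no difference below could be set against the spread between animals, and no test was run: differences are described by their size, with 2-fold (1.0 on the log2 scale) as the main mark.

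Mitochondrial β-oxidation shortens fatty acids by repeated rounds of dehydrogenation, hydration, a second oxidation and thiolysis, and passes electrons to the respiratory chain through electron transfer flavoprotein and NADH. Long-chain fatty acids enter the matrix only as carnitine esters, and the first carnitine palmitoyltransferase, which malonyl-CoA inhibits, is regarded as the controlling step. In fasting the liver oxidises fatty acids released by adipose tissue and turns much of the acetyl-CoA into ketone bodies, and many of these genes are known targets of the nuclear receptor PPARα. CREBH, encoded by Creb3l3, is a transcription factor anchored in the endoplasmic reticulum membrane of hepatocytes and known to be activated by fasting.

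The arrays shared 1 slide and 1 scan. Between 39.9% and 45.9% of gene spots were well above background in a channel, and no gene spot was saturated. Creb3l3 had a log2 ratio of KO over WT of -2.07 in fasted and -0.88 in fed livers; over 9 alternative settings the fasted ratio lay between -2.09 and -1.11, and the fed ratio between -0.88 and 0.32, above 0 only where ratios were centred on the median of all gene spots. The sources used here do not say whether the Creb3l3 probe lies in the deleted stretch. All 8 hepatocyte markers were well above background in all 4 pools. Markers of adipocytes and of skeletal muscle, tissues that also express fatty acid oxidation genes, were at or near background (none of 4 in either KO pool, and at most 1 of 4 in a WT pool). In RNA from whole liver, fewer cells of a type and less RNA per cell cannot be told apart.

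Of the 32 genes, 31 were well above background in all 4 pools. Crat, which encodes carnitine acetyltransferase, was above background in both fasted pools and in neither fed pool, and it has only bounds for fasting: at least 1.70-fold higher in fasted than in fed KO liver and at least 1.66-fold higher in fasted than in fed WT liver. Repeated spots of 1 probe give the technical error: the SD of a log2 ratio of KO over WT was 0.08 on the fasted array (median of 171 probes) and 0.085 on the fed array (median of 143 probes), among 399 probes printed 10 times. For a single spot the SD was 0.173 for fasted over fed signal in KO, 0.175 in WT, and 0.117 for the difference between the fasted and the fed ratio. These errors are of spots on an array and say nothing of the spread between mice. Ratios of KO over WT given below were normalised by loess, which sets the ratio of genes of similar brightness near 0, and their direction can depend on that choice, also for the largest of the set.

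The genes were on the whole higher in fasted than in fed liver, in both genotypes. In KO liver the median log2 ratio of fasted over fed signal was 0.82 over the 31 measured genes, against 0.01 over all 11785 measured genes, and the values ran from -1.16 to 2.0. In WT liver the median was 0.66, against 0.01 over all 11441 measured genes, and the values ran from -0.67 to 2.19. In KO liver 15 of 31 genes had a fasted signal at least 2-fold above the fed one, where 2.59% of all measured genes were, and 1 was at least 2-fold lower, where 2.1% of all genes were. In WT liver 10 of 31 were at least 2-fold higher, where 2.36% of all genes were, and none was at least 2-fold lower, where 1.92% of all genes were. At a mark of 1.5-fold the counts came closer, with 18 genes higher in KO, where 7.16% of all genes were, and 16 higher in WT, where 6.14% of all genes were. Acsm1 was the 1 gene past that mark in the lower direction in each genotype, where 6.47% of all genes in KO and 5.66% in WT were. The genes past 2-fold in KO but not in WT were Cpt2, Acadvl, Ucp2, Decr1 and Ucp3, and of these Cpt2, Acadvl and Ucp2 lay just past the mark in KO, each at 1.01 on the log2 scale. Without normalization between arrays the medians were 1.38 in KO and 1.04 in WT, as the medians of all genes moved up by 0.43 and 0.45.

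**Figure D1:**
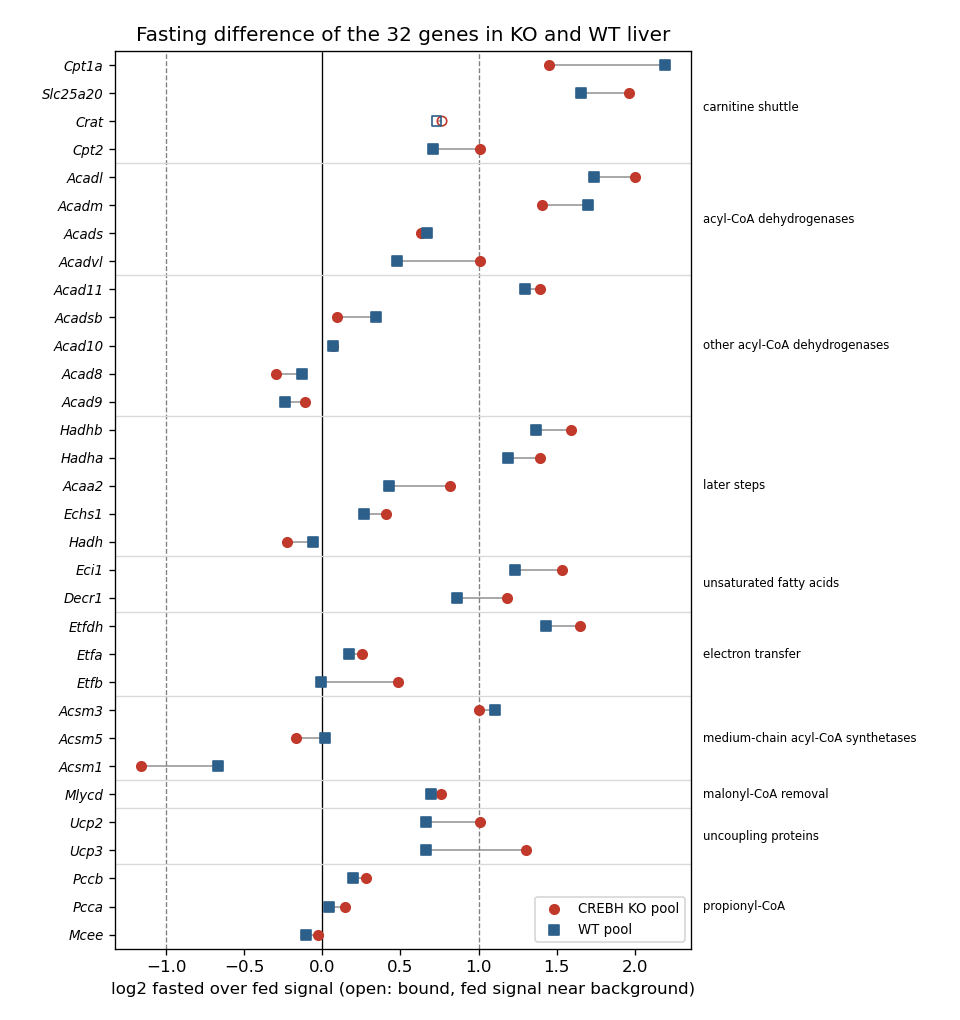
Log2 ratio of fasted over fed signal for each of the 32 genes, grouped by role, in the KO pools (circles) and the WT pools (squares), with 1 pool per group; dashed lines mark 2-fold and open symbols are bounds for Crat. Most genes lie right of 0 in both genotypes, Cpt1a has the highest WT value (2.19) and a lower KO value (1.45), and Acsm1 has the lowest value in each genotype.

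**Figure D2:**
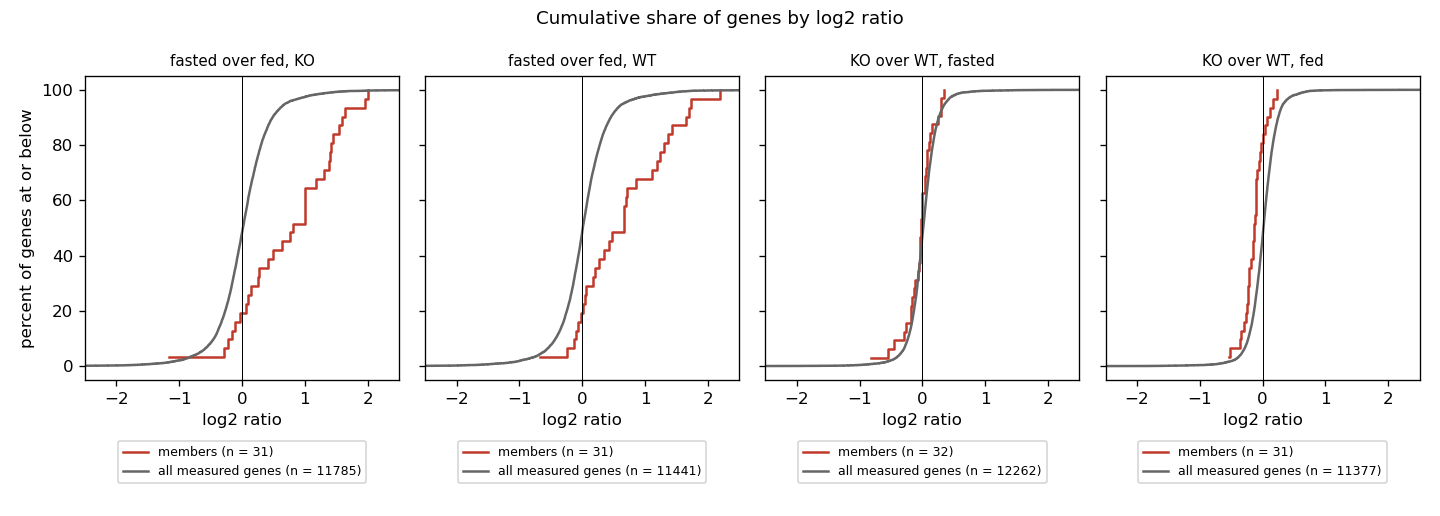
Percent of genes at or below a log2 ratio (horizontal axis) for the measured members (red) and all measured named genes (grey), for fasted over fed signal in KO and in WT, and for KO over WT signal in fasted and in fed liver after loess normalization. The members lie to the right of all genes for fasting in both genotypes, while for KO over WT their curve follows that of all genes in fasted liver and lies slightly to its left in fed liver with loess; with either centring their median lay above that of all genes by 0.25 in fasted and 0.10 in fed liver.

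The carnitine shuttle held the highest WT fasting ratio of the set. Cpt1a encodes the liver form of carnitine palmitoyltransferase on the outer mitochondrial membrane. Its normalised log2 signal was 12.58 in the fasted KO pool and 13.40 in the fasted WT pool, and 11.13 in the fed KO pool and 11.21 in the fed WT pool. The fed pools were close to each other and the fasted pools were not: signal in fasted over fed liver was 2.74-fold higher in KO and 4.57-fold higher in WT. Only 0.21% of all measured genes had a WT fasting ratio as high.

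Cpt1a was also the gene with the lowest KO over WT ratio of the set in fasted liver, -0.82 on the log2 scale or 1.77-fold lower in KO, where the fed ratio was -0.08. The probe was printed 10 times. Its spots on the fasted array ran from -0.87 to -0.74 (SD 0.043, n = 10 spots), and those on the fed array from -0.21 to 0.03 (SD 0.069, n = 9 spots), with no overlap between the arrays. A second Cpt1a probe, printed once, gave -1.06 in fasted and -0.06 in fed liver. In fasted liver 0.775% of all measured genes had a ratio as low as that of the first probe. With ratios centred on the median of all gene spots, which raised the median of all genes by 0.56 on the fasted and by 0.76 on the fed array, Cpt1a stood at 0.08 in fasted and at 0.95 in fed liver. With centring on the median of the measured genes Cpt1a stood at -0.42 in fasted and at 0.24 in fed liver. The difference between the fasted and the fed ratio kept its sign: it was -0.74, and between -0.87 and -0.66 under each alternative. The promoter of Cpt1a is shown because it belongs to the gene with the largest WT fasting ratio among the shuttle genes. The line gives the 250 bases before the start, from RefSeq, build GRCm38.p6, chr19:3323051-3323300, plus strand, with no capitals because none of the motifs searched for (given with the motif search) was found in it.
Cpt1a: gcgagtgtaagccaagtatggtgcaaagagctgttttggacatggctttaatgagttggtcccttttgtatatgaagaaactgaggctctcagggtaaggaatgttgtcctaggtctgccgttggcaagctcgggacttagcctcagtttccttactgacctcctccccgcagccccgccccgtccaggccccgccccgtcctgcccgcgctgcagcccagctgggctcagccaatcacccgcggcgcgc

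The other shuttle genes did not share the low fasted KO value. Slc25a20, the carnitine/acylcarnitine translocase of the inner membrane, had log2 signals of 10.66 in fasted KO and 10.58 in fasted WT liver, and of 8.69 in fed KO and 8.93 in fed WT liver. It was thus 3.90-fold higher in fasted than in fed KO liver and 3.15-fold higher in fasted than in fed WT liver. Cpt2, the inner-membrane palmitoyltransferase that releases acyl-CoA into the matrix, was 2.01-fold higher with fasting in KO and 1.63-fold higher in WT. A second, dimmer Cpt2 probe gave 2.51-fold in KO and 2.79-fold in WT, so the order of the genotypes differed between the probes. Crat had a KO over WT ratio of -0.17 in fasted liver.

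Among the straight-chain acyl-CoA dehydrogenases, which take the first oxidation step on chains of different length, all 4 were higher in fasted than in fed liver in both genotypes. Acadl (long-chain) had log2 signals of 11.03 in fasted KO and 10.98 in fasted WT liver, and of 9.03 in fed KO and 9.24 in fed WT liver. Its fasting ratios were 4.0-fold in KO and 3.34-fold in WT, and 0.289% of all measured genes had a KO fasting ratio as high. Acadm (medium-chain) had log2 signals of 14.75 in fasted KO and 14.88 in fasted WT liver, and of 13.34 in fed KO and 13.17 in fed WT liver. Its fasting ratios were 2.66-fold in KO and 3.26-fold in WT, so that here, as for Cpt1a, WT had the larger one. Acads (short-chain) was 1.55-fold higher with fasting in KO and 1.59-fold higher in WT. The promoter of Acadl, shown as that of the dehydrogenase gene with the largest WT fasting ratio, lies at chr1:66863310-66863559, minus strand, in GRCm38.p6 from RefSeq, and again holds none of the motifs.
Acadl: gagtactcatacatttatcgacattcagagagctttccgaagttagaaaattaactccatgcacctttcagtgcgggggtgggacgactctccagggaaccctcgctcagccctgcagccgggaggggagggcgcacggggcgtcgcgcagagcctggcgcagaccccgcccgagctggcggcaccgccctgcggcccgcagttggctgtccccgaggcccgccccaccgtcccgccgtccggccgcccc

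Acadvl, the very-long-chain dehydrogenase of the inner membrane, had unlike ratios of KO over WT in the fasted and the fed state. Its log2 signal was 15.25 in the fasted KO and 15.26 in the fasted WT pool, and 14.24 in the fed KO and 14.78 in the fed WT pool. The KO over WT ratio was -0.01 in fasted and -0.54 in fed liver. In fed liver 1.64% of all measured genes had a ratio as low. It was read from 1 spot per array, with a scanner error of 0.21 for the fed ratio. Which state had the ratio further from 0 turned with the normalization: the ratio was 0.54 in fasted and 0.01 in fed liver with centring on the median of the measured genes, and 1.04 in fasted and 0.72 in fed liver with centring on that of all gene spots. The difference between the arrays kept its sign, at 0.53 and between 0.32 and 0.53 over the alternatives.

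Of the other acyl-CoA dehydrogenases, which act on branched-chain or less usual substrates, 1 of 5 was at least 2-fold higher with fasting in each genotype. Among all measured genes 2.59% in KO and 2.36% in WT were. Acad11, an enzyme of long-chain substrates, was 2.62-fold higher in KO and 2.46-fold higher in WT. Acadsb and Acad8, which serve isoleucine and valine breakdown, had log2 fasting ratios of 0.09 and -0.29 in KO and of 0.34 and -0.13 in WT. Acad9, also known as an assembly factor of respiratory complex I, had -0.11 in KO and -0.24 in WT. Acad10 had 0.07 in both genotypes. Except for Acad11, these 4 genes moved less with fasting than the straight-chain enzymes, and their KO over WT ratios lay between -0.18 and 0.12 on both arrays.

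The later steps fell into a group with large and a group with small fasting ratios. Hadha and Hadhb encode the α and β subunits of the mitochondrial trifunctional protein, which carries out hydration, the second oxidation and thiolysis of long chains. Hadha was 2.63-fold higher in fasted than in fed KO liver and 2.28-fold higher in fasted than in fed WT liver. Hadhb was 3.01-fold higher in KO and 2.58-fold higher in WT. The pair thus had similar ratios in each genotype, with KO over WT ratios of -0.01 (Hadha) and 0.12 (Hadhb) in fasted liver and of -0.22 and -0.11 in fed liver. Their starts lie 272 bases apart on chromosome 5 on opposite strands in GRCm38.p6, and their promoter windows overlap by 228 bases. The sequence between them is shown for that reason, as the 250 bases before the start of Hadhb at chr5:30155003-30155252, plus strand, from RefSeq, with none of the motifs in it.
Hadhb: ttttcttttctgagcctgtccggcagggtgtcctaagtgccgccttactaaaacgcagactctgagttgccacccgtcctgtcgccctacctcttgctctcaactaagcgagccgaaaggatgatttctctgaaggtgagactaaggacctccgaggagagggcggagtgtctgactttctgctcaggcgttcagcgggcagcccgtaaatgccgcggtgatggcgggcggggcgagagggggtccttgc

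The enzymes of the same steps for shorter chains were lower in the order. Acaa2, the 3-ketoacyl-CoA thiolase of the matrix, was 1.76-fold higher with fasting in KO and 1.34-fold higher in WT. Its probe was also printed 10 times: the KO over WT ratio was 0.25 in fasted liver (SD 0.055, n = 10 spots, from 0.17 to 0.34) and -0.15 in fed liver (SD 0.083, n = 10 spots, from -0.30 to -0.02), so the spots of the arrays did not overlap. Echs1, the short-chain enoyl-CoA hydratase, was 1.33-fold higher in KO and 1.20-fold higher in WT. Hadh, the 3-hydroxyacyl-CoA dehydrogenase for medium and short chains, had log2 fasting ratios of -0.23 in KO and -0.06 in WT. It had the lower signal in KO on both arrays, with KO over WT ratios of -0.46 in fasted and -0.29 in fed liver, against scanner errors of 0.21 and 0.20. With centring on the median of all gene spots these ratios were above 0, as were the fed ratios of all 31 measured members but Ucp3.

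Both enzymes that prepare unsaturated chains were higher with fasting. Eci1, the enoyl-CoA isomerase that moves double bonds, was 2.90-fold higher in KO and 2.35-fold higher in WT. Decr1, the 2,4-dienoyl-CoA reductase, was 2.26-fold higher in KO and 1.82-fold higher in WT, and its second probe gave 2.18-fold and 1.75-fold. The Decr1 probes also gave like KO over WT ratios, 0.29 and 0.28 in fasted liver and -0.03 and -0.04 in fed liver.

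Electron transfer from the dehydrogenases to ubiquinone divided between its flavoprotein and its oxidoreductase. Etfdh, the oxidoreductase, had log2 signals of 13.50 in fasted KO and 13.40 in fasted WT liver, and of 11.86 in fed KO and 11.97 in fed WT liver, which is 3.13-fold higher with fasting in KO and 2.70-fold higher in WT. Etfa, the α subunit of the flavoprotein, had log2 fasting ratios of 0.26 in KO and 0.17 in WT by its brighter probe, but 0.87 and 0.98 by a second probe, so its size depends on the probe. Etfb, the β subunit, had log2 signals of 15.38 in fasted KO and 15.40 in fasted WT liver, and of 14.90 in fed KO and 15.41 in fed WT liver. As for Acadvl, the state with the ratio further from 0 turned with the normalization. The KO over WT ratio was -0.02 in fasted and -0.52 in fed liver with loess, 0.54 and 0.08 with centring on the median of the measured genes, and 1.04 and 0.79 with centring on that of all gene spots.

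The medium-chain acyl-CoA synthetases, which activate medium-chain and aromatic acids inside mitochondria, did not move together. Acsm3 was 2.0-fold higher with fasting in KO and 2.15-fold higher in WT by its brighter probe, and 1.55-fold and 1.95-fold higher by the other. Acsm1 went the other way, with log2 signals of 12.97 in fasted KO and 13.22 in fasted WT liver, and of 14.12 in fed KO and 13.89 in fed WT liver. Its fasted signal was 2.23-fold lower than the fed signal in KO and 1.59-fold lower in WT. A second Acsm1 probe gave the same directions with smaller sizes, 1.57-fold and 1.12-fold lower. Acsm5 stayed near its fed level (log2 -0.17 in KO and 0.02 in WT), and its KO over WT ratio was -0.54 in fasted and -0.36 in fed liver.

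Mlycd, which removes the inhibitor malonyl-CoA, was 1.69-fold higher with fasting in KO and 1.62-fold higher in WT. Ucp2 and Ucp3, carriers of the inner membrane that are related to the thermogenic protein of brown fat, were dim in liver. Ucp2 had log2 signals of 8.31 in fasted KO and 7.96 in fasted WT liver, and of 7.30 in both fed pools. Ucp3 had 8.05 in fasted KO and 7.75 in fasted WT liver, and 6.74 in fed KO and 7.08 in fed WT liver, where the lowest signal well above background lay at 6.08 in fed KO and 6.11 in fed WT. The fasting ratio of Ucp3 was 2.47-fold (log2 1.31) in KO and 1.58-fold in WT, the KO value being 2.04 on the log2 scale with scanner-processed signals, and a second Ucp3 probe was not above background in any pool. Ucp2 is known to be abundant in macrophages. The summed signal of 7 Kupffer cell markers, all above background in every pool, was 15969 in fasted KO and 15184 in fasted WT liver, and 11566 in fed KO and 15829 in fed WT liver, and its part in the Ucp2 values was not tested.

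The enzymes that turn propionyl-CoA, the end product of odd-chain oxidation, into methylmalonyl-CoA were nearly level. Pcca and Pccb, the subunits of propionyl-CoA carboxylase, had log2 fasting ratios of 0.15 and 0.28 in KO and of 0.04 and 0.20 in WT. Mcee, the epimerase that follows, had -0.03 in KO and -0.10 in WT. KO over WT ratios of the 3 genes lay between -0.15 and 0.15 on both arrays.

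Set against WT, the KO livers showed small ratios across the pathway. In fasted liver the median log2 ratio of KO over WT was -0.02 over 32 genes (0.01 over all 12262 measured genes), with a range from -0.82 to 0.35. Of the 32 genes 12 lay above 0 and 20 below, where 47.3% of all genes lay below. None of the 32 was 2-fold apart, where 0.791% of all genes were, and Cpt1a was the 1 gene 1.5-fold apart, where 2.73% of all genes were. In fed liver the median was -0.13 over 31 genes (0.01 over all 11377), with a range from -0.54 to 0.24. Of the 31 genes 6 lay above 0 and 25 below, where 46.9% of all genes lay below. None was 2-fold apart, where 0.554% of all genes were, and none was 1.5-fold apart, where 2.73% of all genes were. With scanner-processed signals the fed ratio was -0.888 for Ucp3 and -0.597 for Acadvl, both past the 1.5-fold mark of 0.585. The direction of both medians depends on the normalization: with centring on the median of the measured genes they were 0.32 in fasted and 0.16 in fed liver, with 6 of 32 and 9 of 31 genes below 0, and with centring on that of all gene spots 0.82 and 0.87, with 0 of 32 and 1 of 31 below 0. The median of all genes was 0.072 in fasted and 0.067 in fed liver with the first centring, and 0.57 and 0.777 with the second. Measured from the median of all genes, the fasted median lay at -0.03 with loess and at 0.25 with either centring. The fed median lay at -0.14 with loess and at 0.10 with either centring. After loess the 7 Kupffer cell markers had a median ratio of 0.15 in fasted and of -0.32 in fed liver, where all 7 were below 0. The 8 hepatocyte markers had medians of 0.11 and -0.006, with 4 above and 4 below 0 in fed liver. The part of either list in the values of the members was not tested.

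**Figure D3:**
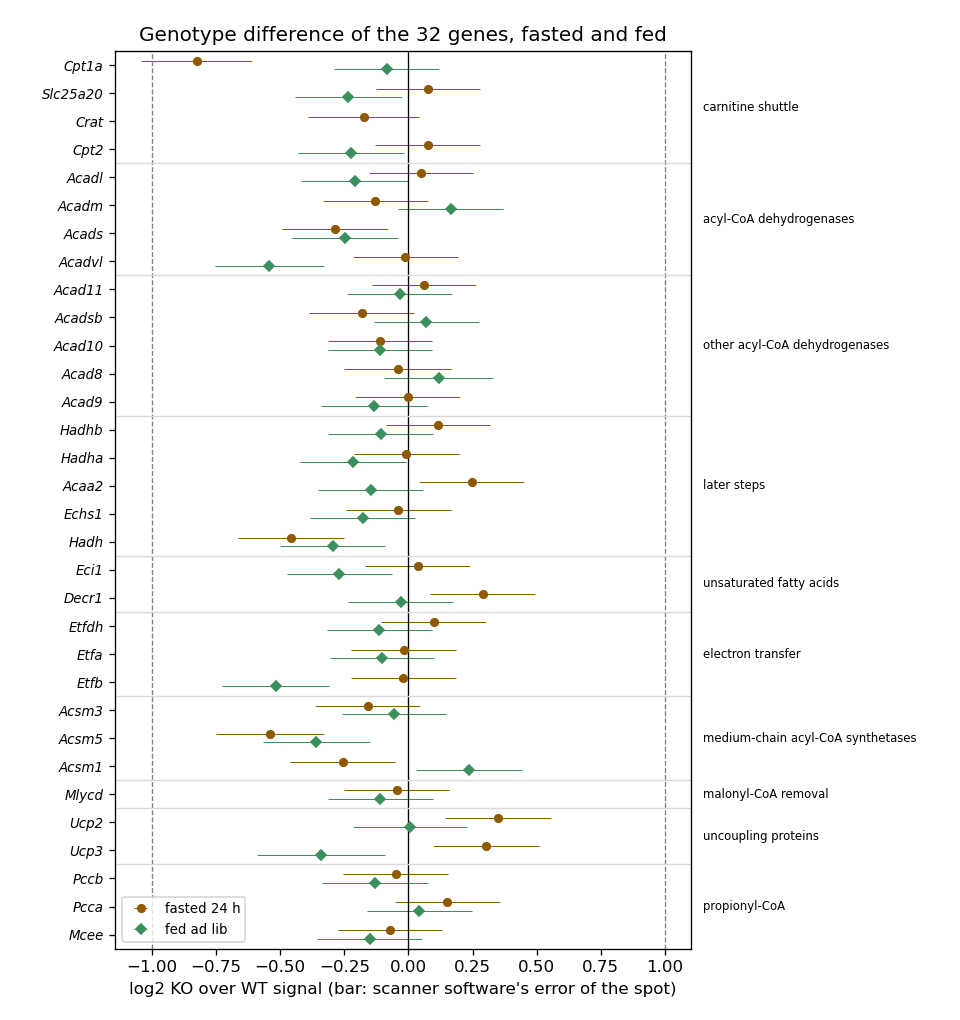
Log2 ratio of KO over WT signal after loess normalization for each gene, in fasted (circles) and fed (diamonds) liver, 1 pool per group, in the gene order of the plot of fasting ratios. Bars are the scanner software's error of a spot (mean over spots of the probe) and dashed lines mark 2-fold; all points lie within 2-fold, and the lowest is fasted Cpt1a at -0.82, a value that was 0.08 with centring on the median of all gene spots.

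The difference between the fasted and the fed ratio of KO over WT is the same quantity as the difference between the KO and the WT fasting ratios, and it varies less with the normalization. It was above 0 for 21 of 31 genes and below 0 for 10, where 48.8% of all genes were above 0. The median was 0.11 (all 11290 measured genes: -0.01), and the range was from -0.74 for Cpt1a to 0.64 for Ucp3. Those 2 were the only members past 1.5-fold, where 4.23% of all genes were, and no member was past 2-fold, where 1.37% of all genes were. The Ucp3 difference was past 2-fold in 2 alternatives. It was 1.24 with scanner-processed signals and 1.04 with centring on the median of the measured genes. After Cpt1a the lowest values were those of Acsm1 (-0.49) and Acadm (-0.29). After Ucp3 the highest were those of Acadvl (0.53), Etfb (0.50) and Acaa2 (0.40). With centring on the median of all gene spots the median of the members was -0.09, with 13 genes above 0 and 18 below, while that of all genes fell by 0.17. With loess all 7 Kupffer markers had a difference above 0, with a median of 0.54. The 8 hepatocyte markers had a median difference of -0.003, with 4 above and 4 below 0. The part of either list in the members' values was not tested.

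The regulators of the pathway were read from a list of 10 genes, of which the ones furthest from 0 are named here. Ppara, which encodes the fasting-activated nuclear receptor, resembled Cpt1a: its brightest probe had a KO over WT ratio of -0.74 in fasted and 0.06 in fed liver, and its 2 other probes gave -0.71 and -0.76 in fasted and -0.10 and -0.17 in fed liver. With centring on the median of all gene spots the fasted ratio was 0.16, while the difference between the arrays lay between -1.01 and -0.67 over all alternatives. The log2 fasting ratio of Ppara was 0.20 in KO and 1.0 in WT by the brightest probe, and 0.45 and -0.19 in KO and 1.06 and 0.40 in WT by the others, so that its direction in KO differed between probes. Pdk4, a kinase that shuts off pyruvate dehydrogenase and so spares glucose, was higher in KO in both states, at 1.56 in fasted and 0.61 in fed liver. Lpin1, a phosphatidate phosphatase and coactivator of PPARα, had -0.43 in fasted and 1.59 in fed liver. Acaca and Acacb, the carboxylases that make malonyl-CoA, had log2 fasting ratios of -2.41 and -1.57 in KO and of -2.31 and -2.39 in WT.

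**Figure D4:**
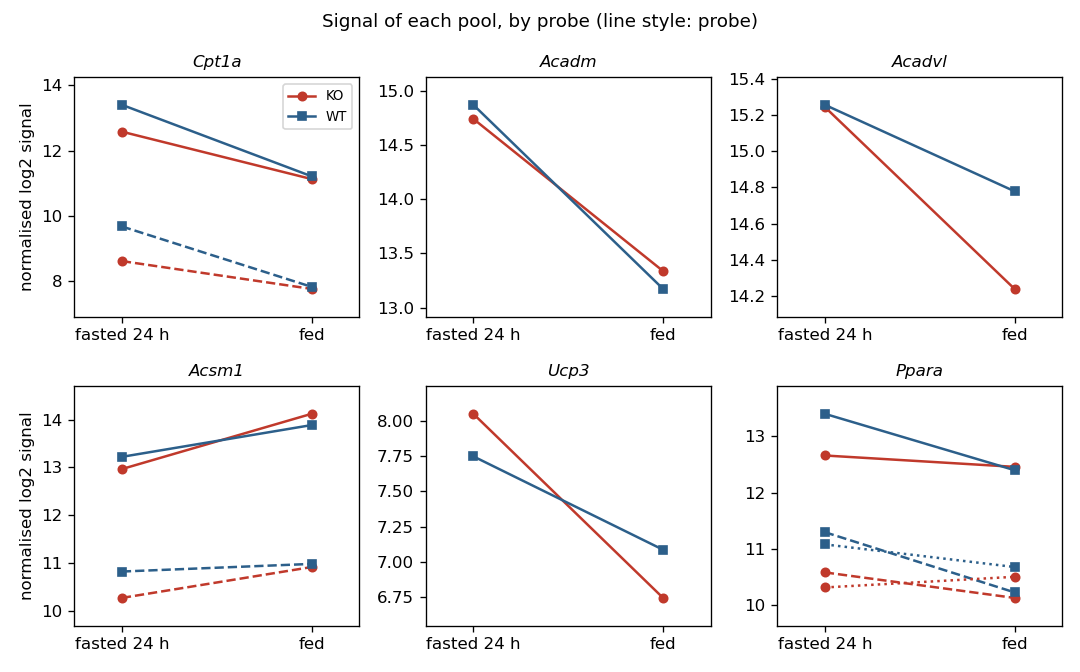
Normalised log2 signal in fasted (left) and fed (right) liver for the KO pools (circles) and the WT pools (squares) after loess and Aquantile normalization, 1 pool per point, for 5 members and Ppara; line styles separate the probes of a gene that were above background in all 4 pools, and each panel has its own vertical range. For Cpt1a and Ppara the fed points nearly coincide and the fasted KO points lie below the fasted WT points. With centring on the median of all gene spots the Cpt1a ratio of KO over WT was 0.08 in fasted and 0.95 in fed liver. The fasted ratio of Ppara was then also above 0. For Acadvl the fasted points coincide and the fed KO point lies below, an order that turned with centring on the median of the measured genes.

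Further lists gave the surroundings of the pathway. Of 15 further mitochondrial enzymes, 12 were measured with fasting. None was 2-fold lower, where 2.1% of all genes in KO and 1.92% in WT were. At least 2-fold higher were 4 in KO and 3 in WT, where 2.59% and 2.36% of all genes were. The higher ones included Eci2 (log2 1.66 in KO and 1.36 in WT), Hsd17b10 (1.56 and 1.30) and Acsl1, which activates long-chain fatty acids at the outer membrane (1.25 and 1.12). A second, dimmer Acsl1 probe gave 1.46 in KO and 1.86 in WT, so the order of the genotypes differed between the probes. Cpt1b, the muscle form of the outer-membrane transferase, was dim in fed liver (log2 6.69 in KO and 6.68 in WT by its brightest probe). With loess its KO over WT ratio in fasted liver was 0.58 by that probe and 0.60 by the other, the opposite direction to Cpt1a. With centring on the median of all gene spots the fasted Cpt1a ratio was 0.08. The enzyme of this list with the fasted ratio furthest from 0 was Acot2, at 0.805, which was not above background in either fed pool. Of 5 genes of carnitine supply, Slc22a5, the carnitine transporter of the plasma membrane, was the 1 at least 2-fold higher with fasting (1.97 in KO and 1.94 in WT).

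The neighbouring pathways were read in the same way. Bdh1, which interconverts the 2 main ketone bodies, had a KO over WT ratio of -0.79 in fasted liver, where centring on the median of all gene spots gave 0.15. Of 16 measured genes of peroxisomal oxidation, 8 in KO and 5 in WT were at least 2-fold higher with fasting, where 2.59% and 2.36% of all genes were. In KO 1 and in WT none was 2-fold lower, where 2.1% and 1.92% of all genes were. Ehhadh, the bifunctional enzyme that carries out hydration and the second oxidation in peroxisomes, had the largest ratios, 3.97 in KO and 2.94 in WT. Its KO over WT ratio was 0.88 in fasted and -0.15 in fed liver, and the fasted ratio lay above the highest of the 32 members, 0.35.

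The promoters of 28 of the 32 genes, 29 windows in all, were in the RefSeq table of GRCm38.p6, each with 250 bases before and 50 after the start. They were searched on both strands for a direct repeat of AGGTCA with 1 base between the repeats (the kind of element PPARα binds with its partner RXR), for TGACG (the core of the element that CREB-type factors bind) and for TCAAGGTCA (the element of estrogen-related receptors). The exact repeat was in 0 of 29 windows and in 0.04% of all 32851 promoters. With up to 2 mismatches it was in 5 of 29 windows (17.2%), and in 3.86% of all promoters. TGACG was in 11 of 29 windows (37.9%), and in 20.8% of all promoters, and TCAAGGTCA in 0 of 29, and in 0.423% of all. A match is a description of these letters and not a site, and a window without a match says only that the letters are not in it. The 5 matches of the repeat, shown because they are those nearest to the PPARα element, are given with 8 bases on each side and the matched stretch in capitals, and none overlaps TGACG. They lie at chr7:100472932-100472960 on the plus strand (Ucp3), chr7:140116484-140116512 on the minus strand (Echs1), chr9:55512300-55512328 on the minus strand (Etfa, where the repeat reads on the opposite strand), chr9:108662134-108662162 on the plus strand (Slc25a20) and chr14:122534319-122534347 on the plus strand (Pcca).
Ucp3: tcagaattAGGTTTCAGGTCAgctggtgc
Echs1: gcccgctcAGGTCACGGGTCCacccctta
Etfa: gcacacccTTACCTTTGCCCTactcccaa
Slc25a20: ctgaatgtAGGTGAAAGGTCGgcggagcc
Pcca: cttgacgaGGGTGAGAGGTCAgcagccgg

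The genes with such a match had fasting ratios of different sizes. Slc25a20 was 3.90-fold higher with fasting in KO and 3.15-fold higher in WT, and Ucp3 2.47-fold and 1.58-fold higher. Echs1, Etfa and Pcca had log2 ratios from 0.15 to 0.41 in KO and from 0.04 to 0.27 in WT. Cpt1a, Acadl, Hadha and Hadhb, all at least 2-fold higher with fasting in both genotypes, had none in these windows.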

How the data were processed

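Total RNA of pooled livers was labelled and hybridised per the labels' protocols, with KO in Cy5 and WT in Cy3. The deposited arrays were read by Agilent Feature Extraction 10.10.1.1, per the file headers. Their columns hold the intensity of spot and local background per channel as medians, without normalization, and processed intensity that was background-subtracted and dye-normalized, per the file headers. Log10 ratios per spot and their errors were deposited too and are those of the same software. The authors' value table holds log2 ratios, which differed from the log10 ratios turned to log2 by at most 0.005 and had medians of 0.00 on both arrays; whether further centring was applied is not known. Median signals were corrected with normexp (offset 50), normalized by loess within arrays with 3671 control spots at weight 0, and by Aquantile between arrays, in limma 3.58.1 under R 4.3.3. Mean signals had been planned and are not in the files used here. The offset shrinks the ratios of dim genes. Outlier spots (197 fasted, 216 fed) were left out and spots of a probe averaged.

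A gene took its probe of highest mean intensity and was measured where at least 50% of the probe's spots were well above background in each channel compared. A bound sets the bright signal against the dim signal or, if that is higher, the lowest signal well above background in the dim channel. Probe accessions were named through a GRCm38.p6 gene table; 28919 of 55681 probes stayed unnamed. The grid is of mouse build mm9, per the file headers, so no gene coordinates were taken from it. The number of arrays limits the precision. Members and lists were chosen with earlier results of these data known: all 32 members are named, other genes only from the lists, at most 4 furthest from 0 per list and comparison. Figures were drawn with matplotlib 3.10.9 under Python 3.11.15. The ketogenesis list is not reported here as a whole.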

Additional observations from a re-analysis of the deposited data

Results flagged for a closer look

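With loess, the KO over WT ratios of 2 genes lay on opposite sides of 0 in fasted and in fed liver. Each loess ratio was larger than the scanner software's error of the spot. The software's own fed ratio of Acsm1, 0.163, lay within its error of 0.205. With 1 pool per group the differences between the states were not tested. Ucp3 had 0.30 in fasted and -0.34 in fed liver, a difference of 0.643 on the log2 scale, from a probe near background in the fed pools; over the alternatives the difference lay between 0.643 and 1.24. Acsm1 had -0.26 in fasted and 0.24 in fed liver, a difference of -0.493, and its second probe gave -0.55 and -0.07, which lie on the same side of 0. Over the alternatives the Acsm1 difference lay between -0.81 and -0.43. The signs depend on the normalization. Both Acsm1 ratios lay above 0 with centring on the median of the measured genes (0.152 fasted, 0.754 fed) and of all gene spots (0.65 and 1.464). With the latter Ucp3 had 0.822 in fasted and -0.001 in fed liver.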

How the results depend on the processing

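The median fasting ratios of the members stayed above 0 under every alternative run. Without normalization between arrays they were 1.379 in KO and 1.042 in WT, as the median of all genes moved up by 0.43 and 0.45. In KO 20 of 31 members were then at least 2-fold higher, where 1164 of all 11785 genes were, and 0 were lower, where 80 were. In WT 17 of 31 were higher, where 1080 of all 11441 genes were. With Aquantile over gene spots alone, an alternative chosen after seeing the data, 13 members in KO and 10 in WT were at least 2-fold higher. Of all genes, 285 of 11785 in KO and 261 of 11441 in WT were. With centring on all gene spots 12 and 10 members were, where 269 and 291 of all genes were. The mean over all measured probes left 0 members 2-fold lower in KO, where 220 of all 11795 genes were. Centring on the median of the measured genes gave a WT median of 0.481. At 1.5-fold, 16 of 31 members were higher and 1 lower with fasting in WT, where 6.14% and 5.66% of all genes were. For KO over WT in fasted liver 1 of 32 was lower, where 1.48% of all genes were. For the difference of ratios 1 of 31 was higher and 1 lower, where 2.25% and 1.98% of all genes were. For KO over WT, centring on all gene spots gave medians of 0.821 in fasted and 0.874 in fed liver. With that setting 8 of 32 members in fasted liver were at least 2-fold higher, where 941 of all 12262 genes were. In fed liver 6 of 31 were, where 3114 of all 11377 genes were. Centring on the measured genes gave medians of 0.324 in fasted and 0.164 in fed liver. For the difference of ratios, centring on all gene spots gave a median of -0.093. Scanner-processed signals and centring on the measured genes each put 1 member, Ucp3, at least 2-fold higher, where 204 and 111 of all 11290 genes were. The cause of these changes was not tested. For single members, the value moved by more than the SD of repeated spots in 42 instances and by less in 206 for fasting in KO. The counts were 36 and 212 for fasting in WT, 73 and 151 for KO over WT in fasted liver and 79 and 138 in fed liver. For the difference of ratios they were 39 and 147. The instances of less movement include settings that could not change a value. These were no filter on dim probes, and probe means for members with 1 measured probe. For fasting, no member past 2-fold changed sign. For KO over WT and for the difference of ratios no member was past 2-fold, so no such check existed. Signs did change there: in fed liver 25 of 31 members lay below 0 with loess and 1 with centring on all gene spots. With loess 46.9% of all genes lay below 0 in fed liver. No paired analysis was possible because each group is 1 pool. Ratios of genes near background, such as Ucp2, Ucp3 and Crat, are limited by signal over background.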
